A study of Homo sapiens with 14 samples.

Results

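The miR-193 and miR-365 clusters are a pair of related gene clusters, each with a miR-193 hairpin followed by a miR-365 hairpin on the same strand. Of the 2588 mature miRNA entries counted in A549 cells, a human lung adenocarcinoma line, 7 were taken by name as members: hsa-miR-193a-5p, hsa-miR-193a-3p, hsa-miR-193b-5p, hsa-miR-193b-3p, hsa-miR-365a-5p, hsa-miR-365a-3p and hsa-miR-365b-3p. The remaining arm of the clusters, hsa-miR-365b-5p, is given for context. RNA carrying N7-methylguanosine (m7G), a guanine methylated at its N7 position, was sought with 2 assays on decapped RNA. In BoRed-seq, sodium borohydride reduction and low pH turned m7G into an abasic site that a biotin-coupled probe binds, and streptavidin beads recovered the RNA. Its 2 Red libraries came from reduced RNA, and its 2 Ctrl libraries came from RNA given borohydride already quenched by acid and taken through the same pulldown. In m7G-RIP-seq, 5 IP libraries held RNA that an antibody against m7G had bound, and 5 Input libraries held RNA treated in parallel without immunoprecipitation. All libraries came from this 1 cell line, and the labels do not say which came from separate cultures, so p-values measure the spread between these libraries, which may be technical.

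A miRNA hairpin is cut from its primary transcript by Drosha and opened by Dicer into a 5p and a 3p arm, and usually one arm is kept by an Argonaute protein while the other is degraded. The kept arm finds target mRNAs mainly through its seed, bases 2 to 8. The 3p arms of miR-193 and miR-365 are the better known products of these hairpins. The miR-193b/365 cluster has been studied in brown fat cells, and miR-193a-3p and miR-193b-3p as tumour suppressors. m7G is best known from the mRNA cap and from internal sites of tRNA and rRNA.

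The sequences are shown because the arms of miR-193b and of miR-365a were recovered differently in both assays. They are the mature sequences of RefSeq (build GRCh38.p14, and the deposited counts were made on GRCh38 as well), 5′ to 3′, with the seed in capitals, and all 8 arms were matched by name.

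hsa-miR-193a-5p: uGGGUCUUugcgggcgagauga
hsa-miR-193b-5p: cGGGGUUUugagggcgagauga
hsa-miR-365a-5p: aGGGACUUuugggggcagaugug
hsa-miR-365b-5p: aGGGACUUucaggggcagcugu
hsa-miR-193a-3p: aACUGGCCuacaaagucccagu
hsa-miR-193b-3p: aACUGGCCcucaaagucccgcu
hsa-miR-365a-3p: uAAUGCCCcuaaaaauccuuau
hsa-miR-365b-3p: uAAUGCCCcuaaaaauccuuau

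The 4 5p arms held 9 to 11 guanines each and the 4 3p arms held 1 to 4. The longest run of guanines was 5 in miR-365a-5p, 4 in miR-193b-5p and miR-365b-5p, and 3 in miR-193a-5p. Among the 3p arms, miR-193a-3p and miR-193b-3p held no run longer than 2 guanines, and the miR-365 3p arms held a single guanine. miR-193a-3p and miR-193b-3p shared their seed and 18 of 22 positions, whereas miR-193a-5p and miR-193b-5p were identical at 18 of 22 positions but differed in the seed. miR-365a-5p and miR-365b-5p shared a seed. miR-365a-3p and miR-365b-3p were identical at 22 of 22 positions, so the 7 members are 6 distinct sequences. In the deposited tables these last 2 entries had the same count in 10 of 14 libraries and never differed by more than 3 counts, so they are described as 1 measurement and their hairpins share their 3p reads.

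The hairpin of miR-193b is printed to show where its arms lie, in capitals, the 5p arm first.

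MIR193B hairpin: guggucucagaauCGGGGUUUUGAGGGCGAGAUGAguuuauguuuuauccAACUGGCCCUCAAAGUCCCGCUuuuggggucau

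In GRCh38, this hairpin lies at chr16:14303967-14304049 and that of miR-365a at chr16:14309285-14309371, both on the plus strand with 5235 bases between them. Both are in introns of the long noncoding RNA gene MIR193BHG in GENCODE. The hairpin of miR-193a lies at chr17:31559996-31560083 on the plus strand, where no other gene is annotated on that strand. The hairpin of miR-365b lies 15327 bases further on, at chr17:31575411-31575521, across the end of an intron of MIR365BHG, another long noncoding RNA gene, with its last 11 bases in an exon and both mature arms in the intron.

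Library totals were 242085 and 277498 counts in Red, 4678102 to 5874405 in Ctrl, 2854811 to 6452759 in IP and 7097379 to 14874685 in Input. A single miRNA, miR-21-5p, held 79.0% to 80.4% of the Ctrl counts and 26.7% to 26.9% of the Red counts, against 38.0% to 46.3% in Input and 4.64% to 6.27% in IP. The members together, with the shared 3p sequence counted once, held 0.124% to 0.312% of the counts in Ctrl, 0.374% to 0.470% in Red, 0.142% to 0.440% in Input and 0.332% to 0.604% in IP. Replicates 4 and 5 of Input and IP stood apart from replicates 1 to 3 on the second principal component, which held 15.3% of the variance, and results in m7G-RIP-seq are therefore also given within each of those sets. The labels name no batch. The epithelial markers miR-200c-3p, miR-141-3p and miR-429 summed to 22.4 to 27.1 CPM (counts scaled to the library total) in Ctrl, 219 to 245 in Red, 59.3 to 102 in Input and 55.8 to 127 in IP, with 3 of 3 detected in each group. Detected means any read in the group. miR-200c-3p led this list in every group. In Red, miR-141-3p and miR-429 were each at 0 to 3.60 CPM, and miR-141-3p was at 0 to 0.342 CPM in Input and 0 to 0.567 CPM in IP. Of 10 markers of other cell types, 6 to 8 were detected per group, miR-486-5p and miR-122-5p were at 0 throughout, and the summed level was 306 to 328 CPM in Ctrl, 314 to 641 in Red, 329 to 541 in Input and 317 to 1172 in IP, led in Ctrl, Input and IP by miR-126-3p. The part of these markers in the results was not tested.

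The question of both comparisons was which miRNAs were recovered with m7G. In each assay, the 3 members that are 5p arms were called enriched (DESeq2 adjusted p under 0.05). The 3 testable entries of 3p arms were called depleted, and those of miR-365a and miR-365b are identical sequences. Of all miRNAs tested by BoRed-seq, 32.2% were called enriched and 27.2% depleted. For m7G-RIP-seq these shares were 27.3% and 29.9%. The 3p calls of m7G-RIP-seq were lost with library totals as the scale, and also when certain single libraries were left out. hsa-miR-193b-5p had the largest enrichment of the members in both assays, and its partner from the same hairpin was depleted. hsa-miR-193a-3p was too rare to enter either fit. Counts below are normalized by DESeq2's median-of-ratios size factors, which take the typical miRNA of an assay as unchanged, and log2 enrichment is the pulldown minus its control in the DESeq2 Wald test, with p-values adjusted over all miRNAs of the assay by the Benjamini-Hochberg method.

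**Figure D1:**
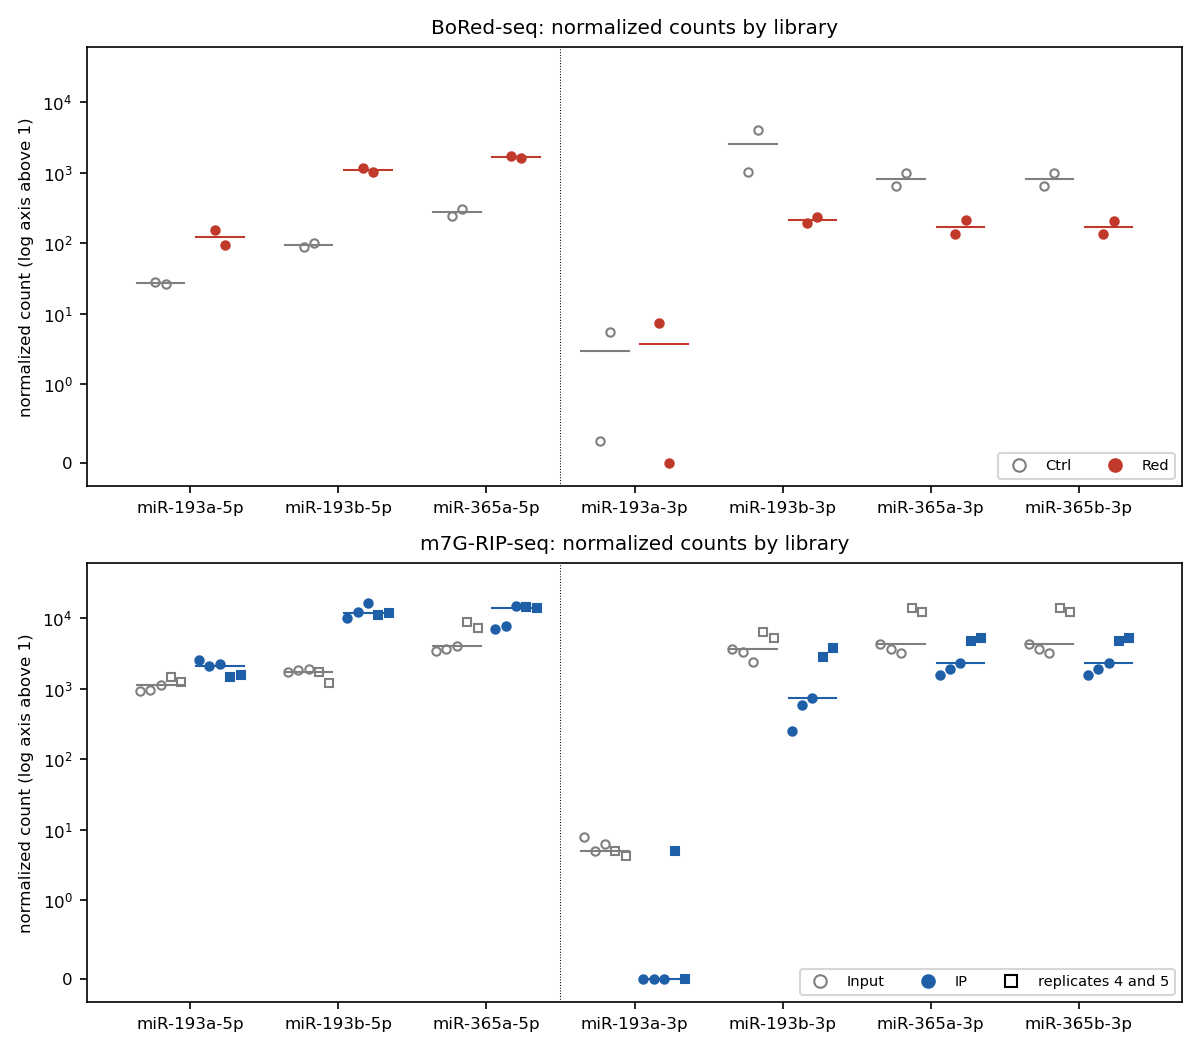
Normalized counts of the 7 members in each library (vertical axis logarithmic above 1), with BoRed-seq above and m7G-RIP-seq below; open symbols are Ctrl or Input, filled symbols Red or IP, squares replicates 4 and 5, and horizontal bars group medians. In BoRed-seq the 3 members on the left of the dotted line (5p arms) lie higher in both Red libraries than in both Ctrl libraries, and miR-193b-3p and the miR-365 3p entries lie lower.

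In BoRed-seq, miR-193b-5p had 89.4 and 102 normalized counts in the Ctrl libraries and 1159 and 1028 in the Red libraries. The Red mean was 11.4 times the Ctrl mean, and the log2 enrichment was 3.52 ± 0.30 (SE, n = 2 each; DESeq2 adjusted p = 2.0e-30). Both Red libraries lay far above both Ctrl libraries for this guanine-rich arm. miR-365a-5p had 239 and 309 normalized counts in Ctrl and 1704 and 1627 in Red, a log2 enrichment of 2.60 ± 0.30 (SE, n = 2 each; DESeq2 adjusted p = 1.1e-17). miR-193a-5p was the least abundant of the 3, with 28.2 and 26.0 in Ctrl and 156 and 93.0 in Red. Its log2 enrichment of 2.18 ± 0.49 (SE, n = 2 each; DESeq2 adjusted p = 3.0e-05) rested on 42 and 38 raw counts in Red, and the call was lost without either Ctrl library (1.47, adjusted p = 0.109, without replicate 1, and 1.54, adjusted p = 0.0726, without replicate 2).

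Without Ctrl replicate 1 the log2 enrichment fell to 2.64 for miR-193b-5p and to 1.65 for miR-365a-5p, both still called. Over all 4 fits that left out 1 library, it ran from 2.64 to 3.80 and from 1.65 to 2.95.

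The 3p arms moved the other way. miR-193b-3p had 1011 and 3987 normalized counts in Ctrl, which differed widely between the replicates, and 193 and 232 in Red. Both Red libraries nevertheless lay below both Ctrl libraries, and the log2 enrichment was −3.55 ± 0.52 (SE, n = 2 each; DESeq2 adjusted p = 6.3e-11), which lost its call without Red replicate 1 (−3.03, adjusted p = 0.0739). The sequence shared by miR-365a-3p and miR-365b-3p had 641 and 995 counts in Ctrl and 133 and 210 in Red under the first name. The log2 enrichment was −2.24 ± 0.39 for miR-365a-3p (SE, n = 2 each; DESeq2 adjusted p = 3.0e-08) and −2.25 ± 0.39 for miR-365b-3p, from nearly the same reads. Over the 4 fits that left out 1 library, both were lowest without Ctrl replicate 1, at −5.004 for miR-193b-3p and −3.30 for miR-365a-3p. miR-193b-3p was nearest to 0 with Ctrl replicate 2 left out, at −2.84, and miR-365a-3p with Red replicate 1 left out, at −1.58. Thus 3 of 7 members were called enriched and 3 depleted, beside 32.2% of the 400 tested miRNAs called enriched and 27.2% called depleted. The 3 depleted entries are 2 sequences, because miR-365a-3p and miR-365b-3p are 1 measurement. The Red and Ctrl libraries did not overlap for any of these 6 members, but neither did they for 82.8% of all miRNAs tested. By arm name alone, the median log2 enrichment in BoRed-seq was −0.55 over 161 tested 5p entries and −0.41 over 163 tested 3p entries.

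In m7G-RIP-seq, miR-193b-5p had 1717, 1812, 1885, 1738 and 1192 normalized counts in Input replicates 1 to 5 and 10095, 11955, 16397, 11174 and 11756 in the IP replicates. The lowest IP library lay well above the highest Input library. The IP mean was 7.36 times the Input mean, and the log2 enrichment was 2.88 ± 0.20 (SE, n = 5 each; DESeq2 adjusted p = 6.2e-46), with 2.81 within replicates 1 to 3 and 2.88 within replicates 4 and 5. It was the only member of the 6 in the fit whose Input and IP libraries did not overlap, beside 42.4% of the 670 miRNAs tested.

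miR-365a-5p had 3401, 3636, 3952, 8644 and 7134 normalized counts in the Input replicates and 6915, 7764, 14652, 14121 and 13941 in the IP replicates. Each IP library was higher than the Input of its number, but IP replicates 1 and 2 lay below Input replicate 4, so the groups overlapped. The log2 enrichment was 1.10 ± 0.35 (SE, n = 5 each; DESeq2 adjusted p = 0.0036), with 1.40 within replicates 1 to 3 and 0.75 within replicates 4 and 5. miR-193a-5p had 912, 940, 1107, 1446 and 1237 in Input and 2503, 2055, 2211, 1437 and 1548 in IP. Its log2 enrichment of 0.79 ± 0.22 (SE, n = 5 each; DESeq2 adjusted p = 0.0011) was carried by replicates 1 to 3, where it was 1.17. Within replicates 4 and 5 it was 0.07 (adjusted p = 0.733).

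miR-193b-3p had 3597, 3259, 2374, 6331 and 5238 normalized counts in the Input replicates and 249, 591, 738, 2761 and 3700 in the IP replicates. Its IP values fell into a low set, replicates 1 to 3, and a set that reached the Input range, replicates 4 and 5. The log2 enrichment was −1.37 ± 0.60 (SE, n = 5 each; DESeq2 adjusted p = 0.0394), with −2.57 within replicates 1 to 3 and −0.93 within replicates 4 and 5, each called there. miR-365a-3p had 4246, 3646, 3155, 13894 and 12160 in Input and 1568, 1901, 2314, 4666 and 5256 in IP. Input replicates 4 and 5 were higher than all other libraries for this sequence, and each IP library was lower than the Input of its number. The log2 enrichment was −1.24 ± 0.50 for both names (SE, n = 5 each; DESeq2 adjusted p = 0.0238), with −0.96 within replicates 1 to 3 and −1.48 within replicates 4 and 5, each called there. With the replicate number as a block, which takes out what same-numbered libraries share, the log2 enrichment was −1.91 for miR-193b-3p (adjusted p = 6.9e-06) and −1.12 for miR-365a-3p (adjusted p = 4.7e-07). This block assumes a pairing that the labels do not state.

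These calls of 3p depletion in m7G-RIP-seq depended on the scaling and on single libraries. With library totals in place of size factors, no 3p member was called and the 3 5p members remained enriched, with log2 values of −1.09 for miR-193b-3p (adjusted p = 0.106) and −0.97 for miR-365a-3p (adjusted p = 0.0931), while the median of all miRNAs rose from 0.02 to 0.38. In BoRed-seq the same change of scaling raised the median of all 453 miRNAs in the fit from −0.32 to 0.76 and kept all 6 members called in the same direction, with −2.38 for miR-193b-3p, −1.07 for miR-365a-3p, 4.63 for miR-193b-5p, 3.73 for miR-365a-5p and 3.26 for miR-193a-5p. Under that scaling the whole-table calls changed from 129 enriched and 109 depleted to 175 and 46 in BoRed-seq, and from 183 and 200 to 232 and 164 in m7G-RIP-seq. In m7G-RIP-seq, leaving out Input replicate 4, Input replicate 5, IP replicate 1, IP replicate 2 or IP replicate 3 left 3 of 7 members called, the 5p arms, and leaving out Input replicate 2 left 5, without miR-193b-3p. The log2 values kept their direction in these fits: miR-193b-3p was −1.27 to −1.06 in the first 5 (adjusted p = 0.0748 to 0.107) and −1.46 without Input replicate 2 (adjusted p = 0.0513), and miR-365a-3p was −1.14 to −0.88 in the first 5 (adjusted p = 0.0579 to 0.112). Under the main scaling, 3 of 7 members were enriched and 3 depleted, beside 27.3% of the 670 tested miRNAs called enriched and 29.9% called depleted. Here too the 3 depleted entries are 2 sequences. The median log2 enrichment by arm name in this assay was 0.03 over 256 5p entries and −0.15 over 274 3p entries.

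**Figure D2:**
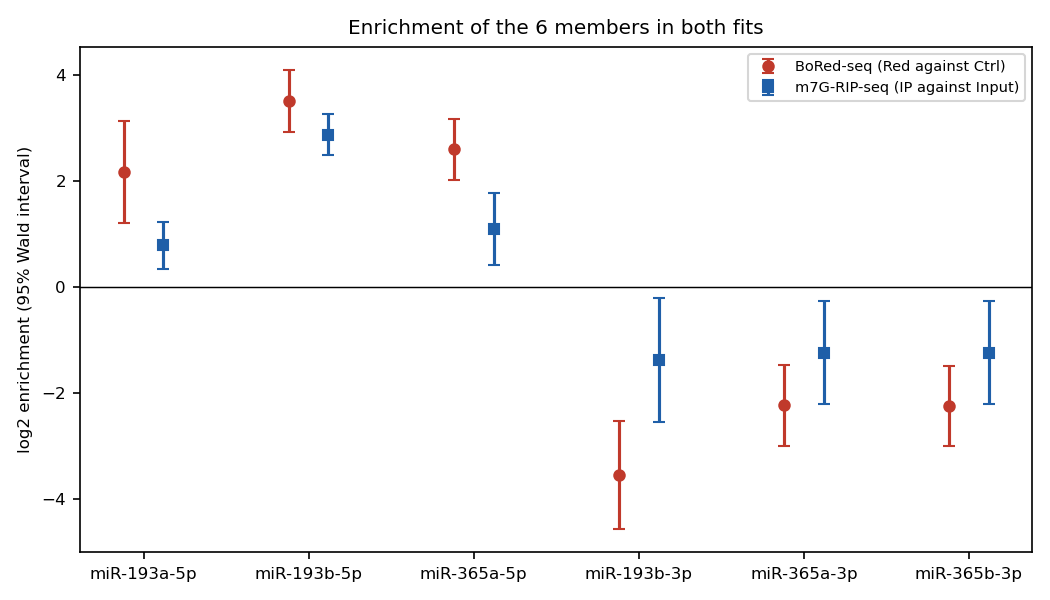
Log2 enrichment (vertical axis) of the 6 members that entered both fits, with bars for 95% Wald intervals; circles are BoRed-seq (2 Red against 2 Ctrl libraries) and squares m7G-RIP-seq (5 IP against 5 Input libraries). The 3 members on the left, 5p arms, lie above 0 in both assays, and the 3p entries lie below 0, with miR-365a-3p and miR-365b-3p drawn from nearly the same reads.

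The arm left out of the fits, miR-193a-3p, had 1 and 15 raw counts in the Ctrl libraries and 2 and 0 in the Red libraries. In m7G-RIP-seq it had 7, 8, 9, 8 and 8 counts in Input and 0, 0, 0, 5 and 0 in IP. At these depths no difference could be shown for it: fitted without the filter on low counts, its log2 enrichment was −0.27 in BoRed-seq (adjusted p = 0.933) and −2.36 in m7G-RIP-seq (adjusted p = 0.147). For context, miR-365b-5p was also rare, with 10 and 11 raw counts in Ctrl and 6 and 20 in Red, a log2 enrichment of 3.41 ± 0.87 (SE, n = 2 each; DESeq2 adjusted p = 2.3e-04). Without Ctrl replicate 1 its adjusted p was 0.154, and without Red replicate 2 it was 0.0967. In m7G-RIP-seq it ran from 74.6 to 128 normalized counts in Input and from 91.2 to 255 in IP and was not called (0.62 ± 0.32, SE, n = 5 each; DESeq2 adjusted p = 0.0841). It was called with library totals as the scale (0.98, adjusted p = 0.0069), without IP replicate 4 (0.81, adjusted p = 0.0176), without IP replicate 5 (0.76, adjusted p = 0.0425) and within replicates 1 to 3 (0.90, adjusted p = 0.0322).

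The arms of a hairpin come from 1 precursor and were counted in the same library, so the ratio of 5p to 3p reads needs no scaling between libraries. For miR-365a, however, the 3p count also takes in reads of the identical miR-365b-3p, so its 5p share may be understated. The hairpins of miR-193b and miR-365a went from mostly 3p reads or near balance in the controls to mostly 5p reads in the pulldowns of both assays. For miR-193b, the 5p arm held 8.12% and 2.49% of the arm reads in Ctrl and 85.8% and 81.6% in Red. The widest 95% Wilson interval among these 4 shares was 81.8% to 89.0%, in Red replicate 1 with 365 arm reads, and such intervals cover counting error only. For miR-365a, the share was 27.2% and 23.7% in Ctrl and 92.7% and 88.5% in Red. By these counts the major arm of both hairpins was a different one in Red and in Ctrl, with the shared 3p reads a limit for miR-365a.

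In Input replicates 1 to 5, the 5p arm of miR-193b held 32.3%, 35.7%, 44.3%, 21.5% and 18.5% of the arm reads, and in the IP replicates it held 97.6%, 95.3%, 95.7%, 80.2% and 76.1%. Replicates 4 and 5 were the lowest in both groups, and the groups did not overlap. For miR-365a the shares were 44.5%, 49.9%, 55.6%, 38.4% and 37.0% in Input and 81.5%, 80.3%, 86.4%, 75.2% and 72.6% in IP. Again replicates 4 and 5 were the lowest and the groups did not overlap. Among all hairpins tested in m7G-RIP-seq, 35 of 155 moved toward the 5p arm with no overlap between the groups, these hairpins included. In BoRed-seq the same held for 36 of 100.

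**Figure D3:**
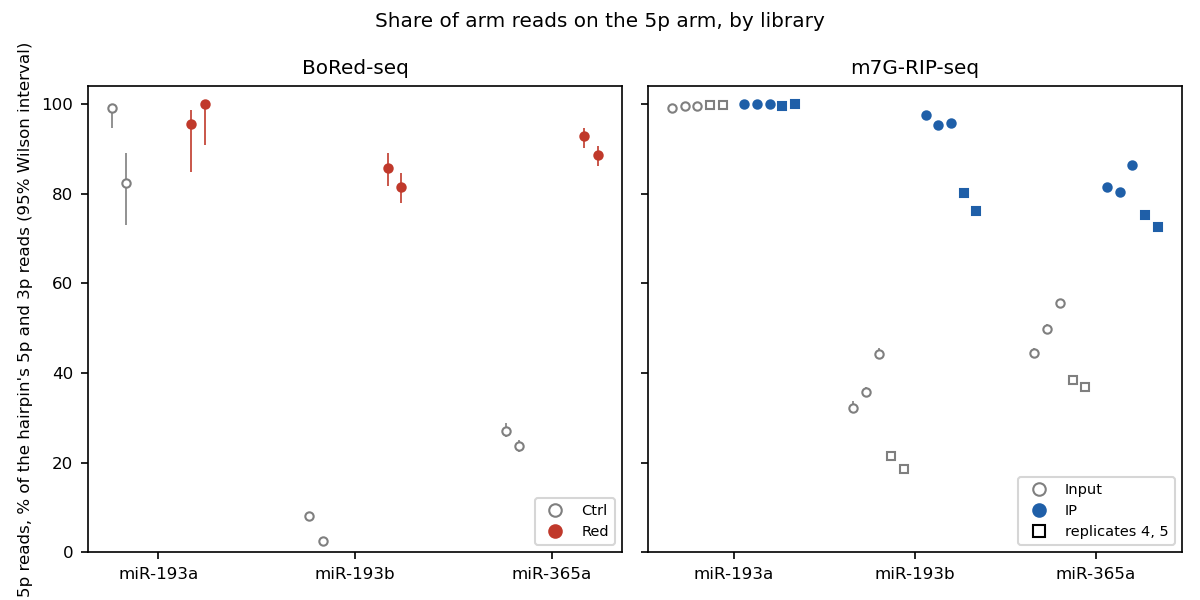
Share of a hairpin's 5p and 3p reads that came from the 5p arm (vertical axis, percent) for miR-193a, miR-193b and miR-365a in each library, with 95% Wilson intervals, BoRed-seq on the left and m7G-RIP-seq on the right; open symbols are Ctrl or Input, filled symbols Red or IP, and squares replicates 4 and 5. miR-193b and miR-365a lie higher in every pulldown library than in every control library of the assay, while miR-193a was mostly 5p in all groups. Such non-overlap toward the 5p arm held for 36 of 100 hairpins tested in BoRed-seq and 35 of 155 in m7G-RIP-seq. The 3p reads of miR-365a are shared with miR-365b.

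The shift of log2(5p/3p) was tested with limma over all hairpin names with both arms in the fit. In BoRed-seq it was 6.75 ± 0.65 for miR-193b (SE, n = 2 each; limma adjusted p = 0.0019) and 4.85 ± 0.36 for miR-365a (SE, n = 2 each; limma adjusted p = 0.0016), ranks 2 and 8 of 100 hairpins toward the 5p arm. Of those 100 hairpins, 23.0% were called toward the 5p arm at a limma adjusted p under 0.05, 49 had a shift above 0 and the median shift was −0.03. With 2 libraries a group, an exact permutation test of a single hairpin could not go below p = 0.333. In m7G-RIP-seq the shift was 4.82 ± 0.72 for miR-193b (SE, n = 5 each; limma adjusted p = 3.1e-04), rank 4 of 155. For miR-365a it was 2.26 ± 0.29 (SE, n = 5 each; limma adjusted p = 1.2e-04), rank 33. Of the 155 hairpins, 29.7% were called toward the 5p arm, 94 had a shift above 0 and the median shift was 0.38. A two-sided exact permutation test gave p = 0.00794 for both, the smallest that 5 against 5 libraries allow. Within replicates 1 to 3 the shifts were 5.46 and 2.28, and within replicates 4 and 5 they were 3.84 and 2.23, for miR-193b and miR-365a.

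The hairpin of miR-365b shares its 3p reads with miR-365a, so its ratio sets a rare 5p arm against the reads of 2 loci. Its 5p arm held 0.430% and 0.409% of these arm reads in Ctrl and 14.3% and 19.0% in Red, a shift of 5.55 ± 0.47 (SE, n = 2 each; limma adjusted p = 0.0016). In m7G-RIP-seq the shift was 1.68 ± 0.68 (SE, n = 5 each; limma adjusted p = 0.0664) without the replicate block and had an adjusted p of 0.0023 with it. Within replicates 1 to 3 it was 1.88 and within replicates 4 and 5 it was 1.38. miR-193a was mostly 5p from the start: the 5p arm held 99.0% and 82.4% of its arm reads in Ctrl, 95.5% and 100% in Red, 99.1% to 99.7% in Input and 99.6% to 100% in IP. With so few 3p reads, miR-193a did not enter the main limma fit. Its shift of 1.04 (BoRed-seq) and 3.23 (m7G-RIP-seq) therefore has no test from that fit. The second fell to 1.42 when 3 counts in place of 0.5 were added to each arm.

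The size of enrichment differed between the assays for some members. In a two-sided z test on the DESeq2 estimates, adjusted over 384 miRNAs of which 38.0% differed, 3 of the 6 members tested passed. BoRed-seq minus m7G-RIP-seq was 1.39 ± 0.54 on the log2 scale for miR-193a-5p (adjusted p = 0.0304), 1.50 ± 0.46 for miR-365a-5p (adjusted p = 0.0043) and −2.18 ± 0.80 for miR-193b-3p (adjusted p = 0.0192). For miR-193b-5p the difference was 0.64 ± 0.36 (adjusted p = 0.152), and for miR-365a-3p it was −0.996 ± 0.629 (adjusted p = 0.204). Which members passed changed with library totals as the scale: miR-193b-3p no longer passed (−1.29, adjusted p = 0.182) and miR-193b-5p did (1.40, adjusted p = 0.0018). The assays also differ in their controls: Ctrl libraries went through the pulldown, whereas Input libraries were not immunoprecipitated. They differ in their number of libraries and in their depth as well, and none of these can be told apart from the chemistry.

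Base composition was set beside these values. The share of guanines was 40.9% to 50.0% in the 5p arms of the clusters and 4.55% to 18.2% in the 3p arms. Of the tested miRNAs, 355 of 400 in BoRed-seq and 602 of 670 in m7G-RIP-seq were matched to a RefSeq sequence, and their median was 6 guanines. All 4 5p arms were at or above 9 and all 3p arms at or below 4. Among matched miRNAs with 8 or more guanines, 60 of 95 were enriched in BoRed-seq and 115 of 203 in m7G-RIP-seq. Among those with 5 or fewer, 36 of 169 were enriched in BoRed-seq and 37 of 253 in m7G-RIP-seq. Depleted were 9 of 95 and 22 of 203 with 8 or more guanines, and 54 of 169 and 105 of 253 with 5 or fewer. Over all matched miRNAs, 114 of 355 were enriched and 90 depleted in BoRed-seq, and 171 of 602 enriched and 176 depleted in m7G-RIP-seq. The limits of 8 and 5 were chosen with the members in view, and these counts are a description. Across miRNAs, which share libraries and are not independent replicates, the number of guanines and log2 enrichment had a Pearson r of 0.37 over 355 miRNAs in BoRed-seq and 0.42 over 602 in m7G-RIP-seq.

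The difference between the arms of a hairpin was compared in the same way. The 5p arm held 7 more guanines than the 3p arm in miR-193b, 10 more in miR-365a, 8 more in miR-365b and 6 more in miR-193a, against a median difference of 0 over 87 matched hairpins in BoRed-seq and 1 over 138 in m7G-RIP-seq. Across these hairpins, the guanine difference and the shift of log2(5p/3p) had a Pearson r of 0.47 (BoRed-seq) and 0.48 (m7G-RIP-seq), and 0.38 and 0.46 when miR-193b, miR-365a and miR-365b were left out. The median shift was 2.93 over the 17 BoRed-seq hairpins with at least 5 more guanines in the 5p arm and −0.61 over the 44 with no more than in the 3p arm. In m7G-RIP-seq these medians were 2.09 over 40 hairpins and −0.65 over 65.

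**Figure D4:**
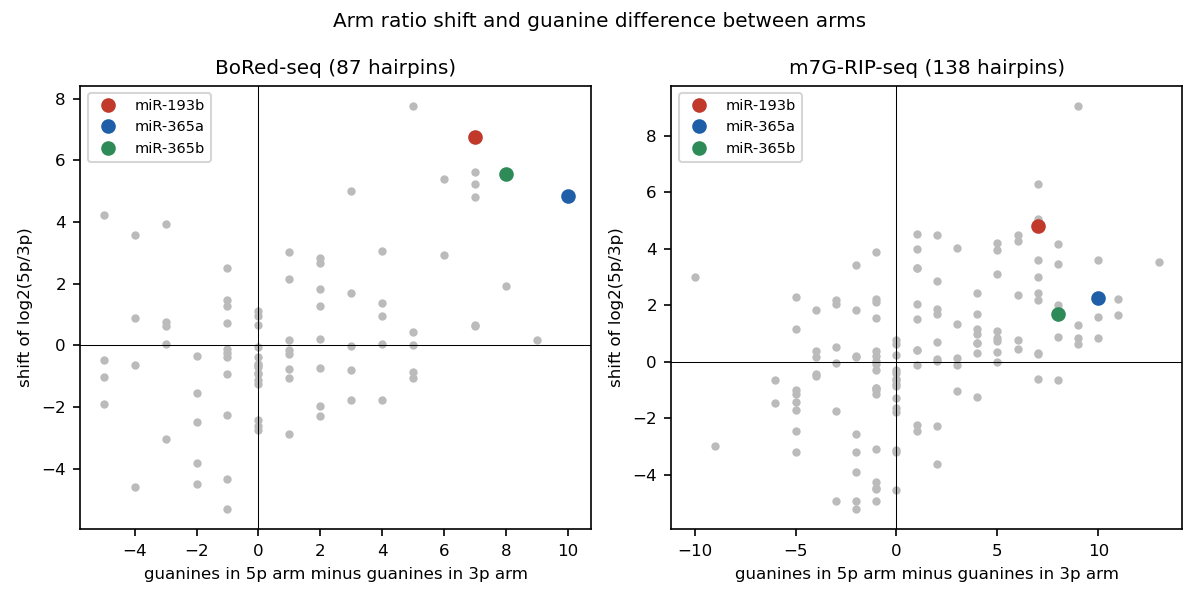
Shift of log2(5p/3p) in the pulldown against its control (vertical axis) and number of guanines in the 5p arm minus that in the 3p arm (horizontal axis), 1 point per hairpin, with 87 hairpins in BoRed-seq on the left and 138 in m7G-RIP-seq on the right. The coloured points, miR-193b, miR-365a and miR-365b, lie at differences of 7, 10 and 8 guanines and above a shift of 0 in both panels.

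Over the 10 m7G-RIP-seq libraries, the miRNAs whose log2 normalized counts ran most like those of miR-193b-5p were miR-320d and miR-320c (Pearson r = 0.991 for each) and miR-1249-5p (r = 0.989), of 663 compared. Their log2 enrichments were 2.26, 2.10 and 3.27. The nearest to miR-193b-3p were miR-7976 (r = 0.969), miR-34c-5p (r = 0.954) and miR-23b-3p (r = 0.949), with log2 enrichments of −1.05, −1.61 and −1.14. These are descriptions of likeness over shared libraries that fall into 2 groups, with no test.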

How the data were processed

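The deposited values were raw read counts per mature miRNA, 1 table per assay. The authors trimmed adaptors with Trimmomatic, aligned reads to hg38 and counted them over miRBase mature miRNAs with featureCounts. Their methods name STAR as the aligner and the submitters' processing notes name Bowtie2. Reads that fitted several loci were kept, so identical arms share their counts. Library preparation was a stranded small RNA kit with single-end reads. No replicates were pooled, and 0 columns of values matched no sample. Groups and replicate numbers came from the sample labels.

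Each assay was fitted with DESeq2 1.42.0 in R 4.3.3 over the miRNAs that reached 10 counts in 2 (BoRed-seq) or 5 (m7G-RIP-seq) libraries, with no covariate and calls at an adjusted p under 0.05. Of 453 BoRed-seq miRNAs, 400 received an adjusted p. Arm ratios, log2 of (5p + 0.5) over (3p + 0.5) counts, were tested with limma 3.58.1. Wilson intervals have a level of 95% and cover counting error only, as the tables give no molecular identifiers. The DESeq2, limma and z tests were first tested on simulated data. The simulated libraries took the fitted means and spreads of these data but held no split of replicates 1 to 3 from 4 and 5. They cannot show how the tests behave under that split. The edgeR 4.0.16 quasi-likelihood test, other scalings, filters, pseudocounts, a replicate block, left-out libraries and the replicate sets 1 to 3 and 4 to 5 were alternatives.

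Same-numbered Input and IP libraries deviated together from their group means (correlations of 0.18, 0.15, 0.15, 0.31 and 0.39 for replicates 1 to 5). The replicate block took the numbers as pairs. The pairing comes from this check, not from the labels, and in 2 of 5 replicates another number matched better than the library's own. Replicates 4 and 5 stood apart from replicates 1 to 3 in both groups. That split alone can make same-numbered libraries correlate, so the check cannot tell pairing by number from the split. The members, marker lists, tests and rule for named miRNAs (the members, miR-365b-5p, the 3 miRNAs with the nearest pattern to each arm of miR-193b, and miR-21-5p) were chosen with earlier results of these data known. The markers are background only.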

Additional observations from a re-analysis of the deposited data

Results flagged for a closer look

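Of the 24 groups of 5 libraries examined for a library far from the others, 3 had one, where chance gives about 1 in 20 for independent groups. These groups are not independent, because arm ratios reuse the counts of the arms and the miR-365 3p entries share their reads. The count is therefore not compared with chance. For miR-193b-5p, Input replicate 5 had 1192 normalized counts, below the other Input libraries. For miR-193a-3p, IP replicate 4 had 5.07 normalized counts (5 reads) where the other IP libraries had 0, and its log2(5p/3p) of 8.01 was the lowest of the IP libraries for the same reason.

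Log2 enrichment differed between BoRed-seq and m7G-RIP-seq in the z test by 1.39 for miR-193a-5p, −2.18 for miR-193b-3p, 1.50 for miR-365a-5p and, outside the 7 members, 2.79 for miR-365b-5p (adjusted p = 0.0098). The causes of these differences were not tested.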

How the results depend on the processing

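All counts of members here take miR-365a-3p and miR-365b-3p separately, although they are 1 measurement. In m7G-RIP-seq, 6 of 7 members were called, 3 with library totals as the scale, and 3 to 6 when 1 library at a time was left out. In BoRed-seq the range was 5 to 6 for left-out libraries and 6 under the other alternatives, thinning Ctrl to the Red depth included. Without a BoRed-seq library its group has 1 sample, which is assumed to vary like the other group. The edgeR quasi-likelihood test called 5 members in m7G-RIP-seq, without miR-193b-3p (adjusted p = 0.0645). The replicate block left 6 members called in both assays and moved the whole-table calls in m7G-RIP-seq from 183 enriched and 200 depleted to 192 and 237. In BoRed-seq, where the paired numbers had a correlation of 0.11 over 2 pairs and are only names, it gave 119 and 98. Beyond the miR-365b arm shift, the block changed no call of a member. The arm shift of miR-193a in m7G-RIP-seq was 1.42 with 3 counts added to each arm, and, where hairpins entered at 20 counts of both arms together, it was 3.23 with a limma adjusted p of 0.0045; in BoRed-seq that filter gave 1.04 with an adjusted p of 0.564. The log2 enrichment of miR-365b-5p in m7G-RIP-seq was −0.10 within replicates 4 and 5 alone (adjusted p = 0.842), against 0.90 within replicates 1 to 3. The arm shifts of miR-193b and miR-365a kept their direction under all alternatives run, in both assays. They also kept their call, except in the exact permutation test in BoRed-seq, which has too few libraries to make a call. The z test within the replicate sets was added after seeing the data, and the number of members that passed was 3 in each set. Both sets were compared with the same BoRed-seq libraries, so these counts are not independent. The share of all miRNAs that passed in each set is not given, so the counts are not read as a result about the members. Causes of these changes were not tested. The Red depth limits miR-193a-3p and miR-365b-5p.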
